A study of Mus musculus with 7 samples.

Results

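RNA helicases and splicing factors are the proteins that unwind, splice, package and store messenger RNA, and the genes that encode them can themselves be targets of microRNAs. The set described here holds the protein-coding genes of the mouse genome whose symbols start with Hnrnp, Srsf, Rbm, Ddx, Dhx, Pcbp, Pum, Cpeb, Igf2bp, Rbfox, Ptbp, Khdrbs or Nova. The symbols were chosen with earlier results of these data known, and genes were then taken by symbol alone. There were 156 such genes among 22028 protein-coding genes. Of these, 82 had at least 1 position where Argonaute was crosslinked to their RNA, and they held 252 of the 14054 positions in all. For the other 74, no position is listed, which does not show that Argonaute was absent, since a position is listed only where it was seen in at least 2 libraries.

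The data come from PAR-CLIP of CD-1 mouse retinas taken at postnatal day 0 and kept as explants for 24 h. The medium contained 4-thiouridine at 0.1 mM, a modified uridine that cells build into new RNA, beside horse serum at 20%, and ultraviolet light of 365 nm then joined the uridine to bound protein. There were 5 libraries from an anti-Argonaute antibody (2A8) and 2 from an IgG1 isotype control, each from 6 pooled retinas; both groups had the same strain, age and treatment. The deposited tables pool the Argonaute libraries, so each value is the number of libraries, from 2 to 5, in which a crosslink was found. Values of the IgG libraries were not analysed here, so no position was checked against the control.

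Argonaute carries a microRNA and is led to target RNAs by base pairing with the microRNA's seed, bases 2 to 8 from its 5′ end. Most functional sites are thought to lie in 3′ untranslated regions (UTRs), where Argonaute recruits factors that repress translation and shorten the poly(A) tail. In PAR-CLIP the crosslinked uridine, read as T, commonly lies just before the stretch that pairs with the seed. In developing retina, let-7, miR-9, miR-124 and miR-181 are among the abundant microRNAs. Several of the genes described here work with Argonaute: Ddx6 acts in the same repression pathway, and Pumilio proteins bind 3′ UTRs that microRNAs also target.

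Depth per library is unknown, and no value can be set against the spread between libraries. Shares are given with exact (Clopper-Pearson) 95% intervals, which cover counting error only, and positions in the same gene share their RNA and are not replicates. No test was made of differences between these genes and all others. The explants are whole tissue, so fewer cells of a type and less RNA per cell cannot be told apart. Of 14 retinal marker genes, 13 had positions, 220 in total, of which Rorb alone held 105. Of 12 markers of pigment epithelium, vessels, microglia and lens, 1 had positions, namely Kdr with 5. Both lists were chosen with earlier results of these data known, and a position needs Argonaute binding. The counts therefore do not test which cells were present.

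The crosslinks that carry the results are shown first, as RNA-strand sequence from GENCODE M21 transcripts (GRCm38, the mm10 assembly) with the coordinates of each stretch. Capitals mark a 7mer that pairs with bases 2 to 8 of a microRNA, and the lower-case t just before the capitals is the crosslinked base. The microRNAs with matches in 4 or 5 libraries, and let-7, are given as RefSeq mature sequences (GRCm38.p6) with the seed in capitals, so that the pairing can be followed.
let-7a-5p: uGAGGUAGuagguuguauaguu
miR-15a-5p: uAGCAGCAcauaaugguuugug
miR-17-5p: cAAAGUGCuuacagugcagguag
miR-30a-5p: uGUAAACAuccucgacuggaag
miR-92a-3p: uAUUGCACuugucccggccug
miR-181a-5p: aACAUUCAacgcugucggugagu
A 7mer with no entry among these, GTGCCTT, is the sequence known to pair with the seed of miR-124, a neuronal microRNA. It was the most frequent 7mer starting 1 nt after a crosslink over all exonic positions, at 337 of 10973, and was added to the search after the data were seen.

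The helicase sites include the 4 crosslinks of Ddx3x found in all 5 libraries, 2 sites of its Y-linked homologue Ddx3y, a gene picked with its values known, and the most recurrent crosslink of Ddx5. Each lies in the last exon, in the 3′ UTR.
Ddx3x, chrX:13291789-13291816, plus strand, 5 libraries: gttaatgtactGTGCCTTtaactttaga
Ddx3x, chrX:13292943-13292970, plus strand, 5 libraries: tcaagtgtattGTGCCTTgttctaaaac
Ddx3x, chrX:13293274-13293301, plus strand, 5 libraries, miR-15a-5p: tagatacttttTGCTGCTagttttatgt
Ddx3x, chrX:13293398-13293425, plus strand, 5 libraries, miR-181a-5p: acactggcactTGAATGTtgaatgtcac
Ddx3y, chrY:1261988-1262015, minus strand, 3 libraries: tcaagtgtattGTGCCTTgtattaaaat
Ddx3y, chrY:1261505-1261532, minus strand, 3 libraries, miR-15a-5p: aacagacttttTGCTGCTaggttgtgta
Ddx5, chr11:106781705-106781732, minus strand, 4 libraries, miR-17-5p: gtaattatggtGCACTTTtttcgctatt

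Sites of splicing factors and translation regulators follow. Of the 26 crosslinks in 4 or 5 libraries, the 11 with a match are shown here and above; the others, such as that of Rbm18 in 5 libraries, had neither a 7mer-m8 match nor GTGCCTT there and are not printed. The second Ptbp2 site, both Ptbp3 sites and the sites of Cpeb3, Igf2bp1 and Rbms1 are shown for comparison; these and that of Rbm24 were picked with their values known. All lie in the last exon, in the 3′ UTR, except the first Ptbp2 site, which is in coding sequence in exon 8 of 14.
Srsf7, chr17:80201496-80201523, minus strand, 5 libraries, miR-30a-5p: aaaagttatttTGTTTACattattataa
Srsf7, chr17:80201369-80201396, minus strand, 4 libraries, miR-181a-5p: tattgttttgtTGAATGTattaacatct
Rbm6, chr9:107773588-107773615, minus strand, 5 libraries, miR-15a-5p: gttactgttctTGCTGCTagaacttttt
Rbm24, chr13:46430391-46430418, plus strand, 4 libraries: tactttataatGTGCCTTaataataatc
Rbms1, chr2:60751074-60751101, minus strand, 3 libraries, let-7a-5p: tgatcagttatCTACCTCagaggctatt
Ptbp2, chr3:119740424-119740451, minus strand, 4 libraries, miR-181a-5p: acttgtgaattTGAATGTaaaatacaac
Ptbp2, chr3:119719318-119719345, minus strand, 3 libraries: ccaaagtttatGTGCCTTtagtcttaat
Ptbp3, chr4:59473152-59473179, minus strand, 2 libraries: ccaaagtttatGTGCCTTcttcagtagt
Ptbp3, chr4:59475836-59475863, minus strand, 2 libraries: tttcttattatGTGCCTTattatgtgct
Cpeb4, chr11:31934845-31934872, plus strand, 4 libraries, miR-92a-3p: actccagttatGTGCAATacttatctca
Cpeb3, chr19:37021898-37021925, minus strand, 2 libraries, miR-92a-3p: tttgttgttatGTGCAATactgtttgta
Igf2bp1, chr11:95958131-95958158, minus strand, 3 libraries, let-7a-5p: ttggttttaatCTACCTCttagcaaaac

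Argonaute crosslinks were found in every group of these genes, and the 7 that were in all 5 libraries lay in 4 genes. Of the 156 genes, 52.6% (44.4 to 60.6) had a position, beside 22.1% of all protein-coding genes; the expression of the genes was not measured here. Of the 82, 28 had 1 position, 19 had 2, 18 had 3 or 4, and 17 had 5 or more, and these 17 held 122 of the 252 positions. The median was 2 positions per crosslinked gene, the same as over all crosslinked protein-coding genes. Ddx5 and Rbfox2 had the most, with 13 each.

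**Figure D1:**
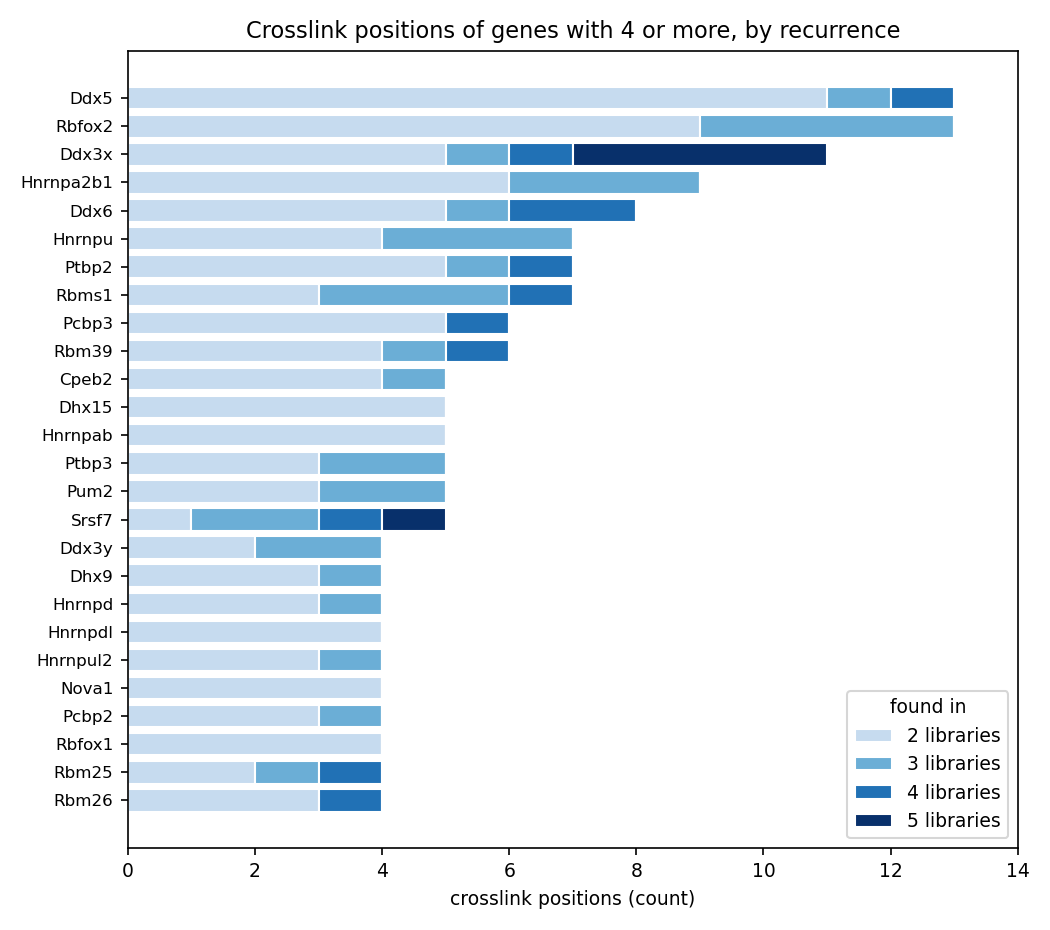
Number of crosslink positions (horizontal axis) for genes with 4 or more, with bar segments coloured by the number of Argonaute libraries that share the position. Ddx5 and Rbfox2 reach 13 positions, but only Ddx3x (4) and Srsf7 (1) of the genes drawn have positions in 5 libraries.

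Recurrence was close to that of the whole table. Of the 252 positions, 184 were in 2 libraries, 42 in 3, 19 in 4 and 7 in all 5. The share in 3 or more libraries was 27% (21.6 to 32.9), beside 25.6% of all positions. The share in 5 libraries was 2.78% (1.12 to 5.64), beside 3.47%. The 7 positions in 5 libraries belonged to 4 genes: Ddx3x with 4, and Rbm6, Rbm18 and Srsf7 with 1 each. The highest value was 4 libraries in a further 16 genes, 3 in 18 and 2 in 44.

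Most positions lay in 3′ UTRs or coding sequence. Over all groups, 132 positions (52.4%, 46 to 58.7) lay in 3′ UTRs, beside 52.1% of all positions. Coding sequence held 83 (32.9%, 27.2 to 39.1), beside 20.9%, and introns held 27 (10.7%, 7.18 to 15.2), beside 17.9%. The rest were 6 in noncoding exons and 4 in 5′ UTRs. The whole-table shares count intergenic positions and noncoding genes too, which these protein-coding genes cannot have. The shares set side by side are therefore not of like positions. Positions in more libraries were more often in 3′ UTRs: 45.7% of those in 2 libraries, 64.3% of those in 3 and 80.8% (60.6 to 93.4) of those in 4 or 5, against 47%, 62.5% and 74.2% over the whole table. The 3′ UTR positions lay at a median of 868 nt from the start of the UTR, and 45 of 132 were within its first 500 nt. The same values over all 3′ UTR positions are not given here, so these are not read as a trait of these genes.

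**Figure D2:**
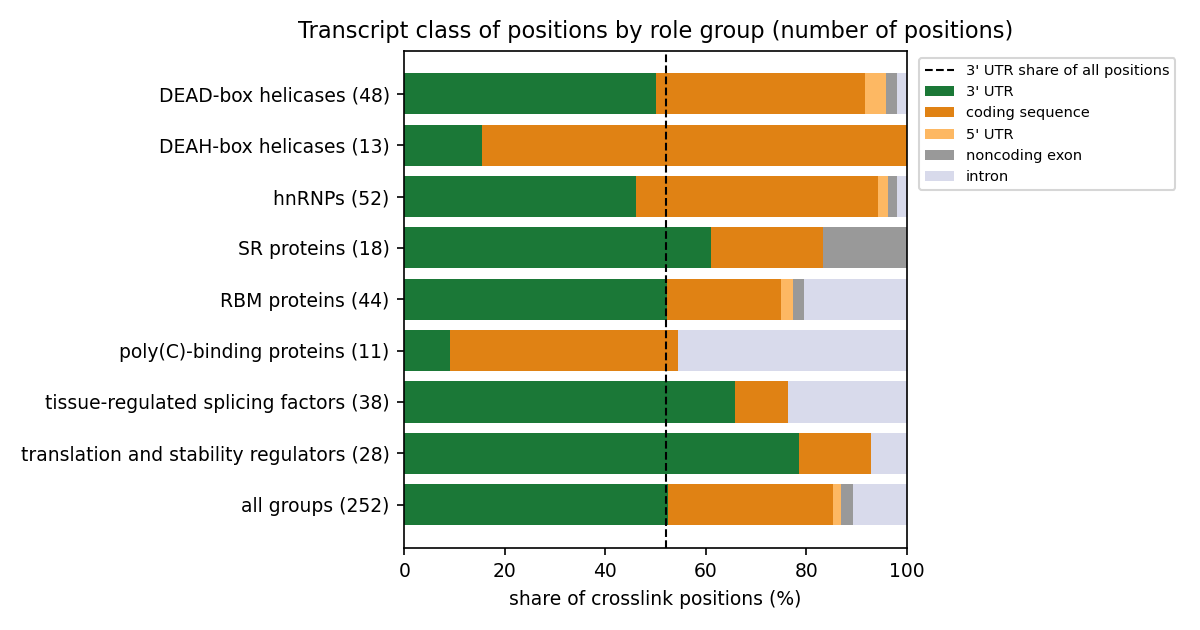
Share of crosslink positions (horizontal axis, percent) in each part of the transcript for the 8 role groups and all groups together, with the number of positions in brackets; the dashed line marks the 3′ UTR share of all 14054 positions, 52.1%. The 3′ UTR share runs from 9.09% for the poly(C)-binding proteins to 78.6% for the regulators of translation and stability, in groups of very unequal size.

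DEAD-box helicases, enzymes that use ATP to remodel RNA and RNA-protein complexes, had positions in 12 of 37 genes, 48 in all, of which 24 lay in 3′ UTRs and 20 in coding sequence. Ddx3x (ENSMUSG00000000787.12, chromosome X, 13280970 to 13294052), an X-linked helicase needed for translation of structured mRNAs, had 11 positions, each of them in its 2560 nt 3′ UTR. Those at 13291799, 13292953, 13293284 and 13293408 were in 5 libraries, that at 13293718 in 4, that at 13293255 in 3, and the other 5 in 2. Without Ddx3x, the 241 remaining positions had a 3′ UTR share of 50.2% and a share in 3 or more libraries of 25.7%.

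The 4 Ddx3x positions in 5 libraries each had a match that started 1 nt after the crosslink. They lay 307, 1461, 1792 and 1916 nt into the UTR, and the first pair of matches was GTGCCTT, the third the miR-15a 7mer and the last the miR-181a 7mer. The miR-15a match is followed by A and is an 8mer, the form of site with the longest seed pairing. The stretch after the miR-181a match repeats its 7mer, as the sequence above shows. The position in 3 libraries was itself the first base of an 8mer match to miR-19a. The positions in 4 and in 2 libraries had no 7mer-m8 match.

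Ddx3y (ENSMUSG00000069045.11, chromosome Y, 1260771 to 1286629) encodes the Y-linked homologue and had 4 positions, 3 in its 2517 nt 3′ UTR and 1 in coding sequence in exon 7 of 17. Those at 1262005 and 1261522 were in 3 libraries and the others in 2. The Ddx3y sequence most like the Ddx3x stretch at 13292953 was the crosslinked stretch at 1262005, identical at 25 of 28 bases, and both hold GTGCCTT. The Ddx3y sequence most like the stretch at 13293284 was that at 1261522, identical at 19 of 28 bases, and both hold the miR-15a 8mer. The best match to the Ddx3x stretch at 13291799 was identical at 21 of 28 bases, did not keep the GTGCCTT and held no listed crosslink. That to the stretch at 13293255 was identical at 20 of 28 bases and kept the miR-19a match, at 1261541, where no crosslink is listed. That to the stretch at 13291931 was identical at 24 of 28 bases, also with no listed crosslink. For the stretch at 13293408, in 5 libraries, it was identical at 16 bases and did not keep the miR-181a match. Best matches at 19 of 28 bases were also found for 13292612 and 13293542, with no listed crosslink, so that value does not mark a shared site. Where the 2 genes are alike, reads of one can be placed on the other. How such reads were handled is not given in the sources used here, so values of both genes at such stretches are uncertain. The sex of the pooled mice is not among the labels used here. Library counts of the Y-linked Ddx3y and of Ddx3x are therefore not like for like.

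**Figure D3:**
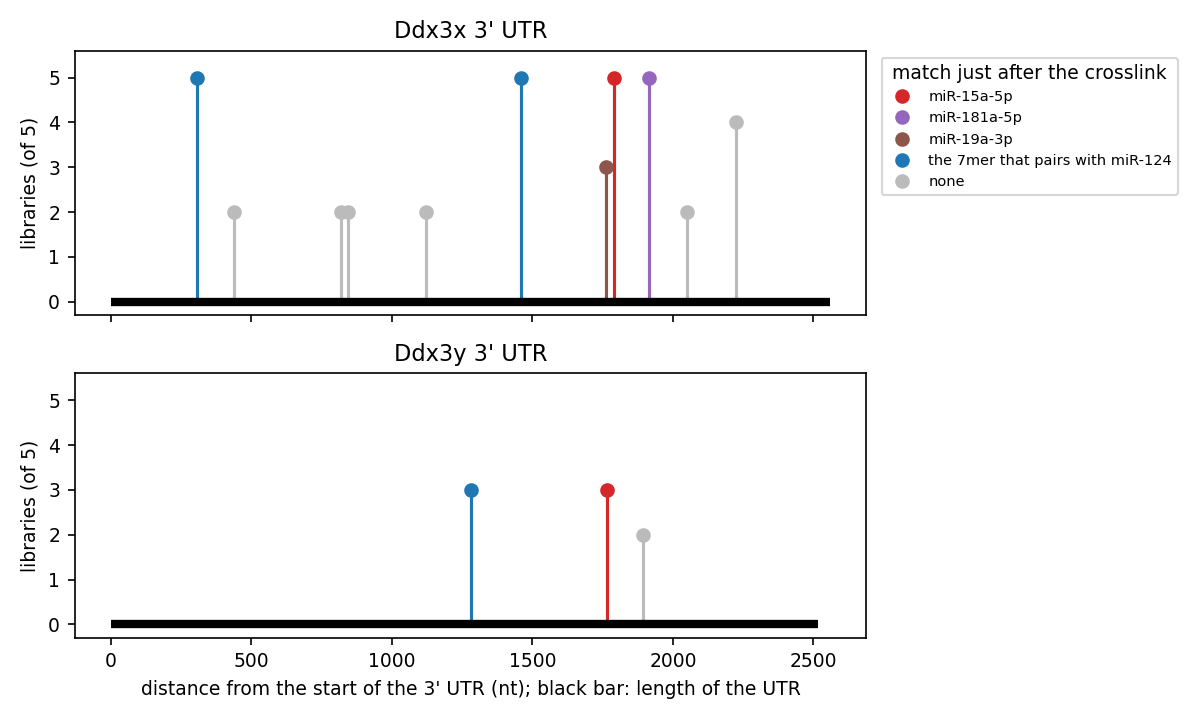
Crosslinks along the 3′ UTRs of Ddx3x and Ddx3y by distance from the start of the UTR (horizontal axis, nt), with the number of Argonaute libraries as height and the microRNA match just after the crosslink as colour. The 4 Ddx3x crosslinks in 5 libraries each have a match. Ddx3y crosslinks in 3 libraries, at 1283 and 1766 nt, have the same matches as those at 1461 and 1792 nt in Ddx3x.

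Ddx5, a helicase of splicing and of primary microRNA processing, showed another layout. Of its 13 positions, 9 lay in coding sequence, in exons 2 to 13 of 13, while 2 lay in the 3′ UTR, 1 in the 5′ UTR and 1 in an exon of a transcript marked for nonsense-mediated decay. The 3′ UTR position at 106781722, in 4 libraries, preceded the miR-17 7mer. A coding position at 106782099, in 3 libraries, was the first base of a miR-30a 8mer, and the other 11 were in 2 libraries with no match. Ddx6, a helicase that links Argonaute complexes to translational repression, had 8 positions, with 6 in its 4250 nt 3′ UTR. Those at 44636917 and 44637551 were in 4 libraries, without a match just after them. A coding position at 44631439, in 2 libraries, lay at overlapping 7mers of miR-19a, miR-130a and miR-148a, which cannot be told apart. Among other helicases, Ddx31 had 1 position, in 3 libraries and followed by GTGCCTT, and Ddx47 had 1, in 2 libraries and followed by the miR-9 7mer; both were picked with their values known.

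DEAH-box helicases, many of which drive steps of the spliceosome, had positions in 5 of 16 genes, 13 in all, and 11 of these were in coding sequence. Dhx15, which helps take apart the spliceosome, had 5 positions, each in coding sequence and each in 2 libraries. Of these, 52150697 lay at a miR-182 8mer and 52157484 was followed by a miR-181a 7mer. Dhx9 had 4, all coding, and 153464693, in 3 libraries, was followed by the let-7 7mer. Dhx32 had the only position of the group in 4 libraries, at 133724410, with no match. Dhx9 and Dhx32 were picked with their values known.

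The hnRNPs, which coat nascent RNA and steer splicing, had positions in 18 of 20 genes, 52 in all. Coding sequence held 25 and 3′ UTRs 24. Of the 52, 9 (17.3%, 8.23 to 30.3) were in 3 or more libraries, with an interval that includes the 25.6% of all positions, and none was in 5. Hnrnpa2b1 had 9 positions: 3 in 3 libraries, at 111, 174 and 246 nt into a 516 nt 3′ UTR, and 6 in 2 libraries. None of the 3 recurrent ones had a match, while a coding position at 51466680 was followed by the miR-27a 8mer and a position in the 3′ UTR of another transcript, at 51461338, by GTGCCTT. Hnrnpu, a nuclear scaffold protein, had 7 positions, of which 6 were coding. Of its 3 in 3 libraries, 178329897 was followed by the miR-125b 7mer. Hnrnph1, picked with its values known, had the group's only position in 4 libraries, at 50379576 in coding sequence, with no match.

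Matches were least frequent in the hnRNPs among the groups with over 20 windows, at 6 of 51 (11.8%, 4.44 to 23.9), with an interval that overlaps those of the other groups. Hnrnpul2 held 3 of these 6, and another of its windows held GTGCCTT. Its 4 positions, all in the 3′ UTR, were at 8832702 in 3 libraries (miR-181a) and at 8832144 (GTGCCTT), 8832449 (miR-125b) and 8834041 (miR-30a) in 2. A second annotated gene covers these 4 positions on the same strand, so they cannot be given to Hnrnpul2 alone, and the gene was picked with its values known. Several hnRNP genes also have close pseudogene copies, to which reads could have been assigned.

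SR proteins, which bind exons and recruit the spliceosome, had positions in 9 of 11 genes, 18 in all, with 11 in 3′ UTRs, 4 in coding sequence and 3 in noncoding exons. Srsf7 (ENSMUSG00000024097.11, chromosome 17, 80200080 to 80207307) had 5 positions, each in its 1468 nt 3′ UTR. That at 80201513 was in 5 libraries and was followed by the miR-30a 8mer, 35 nt into the UTR. That at 80201386 was in 4 and was followed by the miR-181a 8mer, 162 nt into the UTR. Those at 80201473 and 80200729 were in 3 libraries and that at 80201536 in 2, with no match. Of the 18 positions of the group, 7 were in 3 or more libraries (38.9%, 17.3 to 64.3), and 4 of these were in Srsf7.

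The 3 noncoding-exon positions were 2 in Srsf3, at 29040614 and 29040635, and 1 in Srsf5, at 80948447. Each lies in a transcript annotated as retaining an intron. SR protein genes are known to carry alternative stretches of this kind that lead to decay of the mRNA and limit the protein's own level. The Srsf3 position at 29040614 was followed by GTGCCTT, starting 3 nt after it. All 3 were in 2 libraries, and both genes were picked with their values known.

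RBM proteins, a mixed class named for an RNA-recognition motif, had positions in 18 of 47 genes, 44 in all, of which 23 lay in 3′ UTRs and 9 in introns. Rbm6 (ENSMUSG00000032582.14, chromosome 9, 107773559 to 107873237), a splicing regulator, had 2 positions. The 1 at 107773605 was in 5 libraries and was followed by the miR-15a 8mer, 77 nt into a UTR of 123 nt, and the other was intronic, in 2. Rbm18 (ENSMUSG00000026889.12, chromosome 2, 36116079 to 36136773) had 3 positions in its 3′ UTR, of which 36117077 was in 5 libraries with none of the searched 7mers just after it. This was the only position in 5 libraries, among the 7, without a match.

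Rbms1, a single-stranded nucleic acid binding protein, had 7 positions, each in a 3′ UTR. That at 60752912 was in 4 libraries with no match, and of 3 in 3 libraries that at 60751091 was followed by the let-7 8mer. Positions at 60752888 and 60751466, in 2 libraries, were followed by the miR-19a 8mer and by GTGCCTT. Rbm39, a splicing coactivator, had 6 positions, with 156148169 in 4 libraries in the last coding exon and 156162840 in 3, neither with a match. Rbm24, a splicing factor of muscle and lens that was picked with its values known, had 3 positions in its 3′ UTR. That in 4 libraries, at 46430401, was followed by GTGCCTT and an A, and that at 46430896, in 2, was the first base of a miR-26a 8mer.

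Poly(C)-binding proteins had positions in 3 of 4 genes, 11 in all, with 5 in introns, 5 in coding sequence and 1 in a 3′ UTR, and 0 of 6 windows had a match. Pcbp3 had 6 of them. That in its 3′ UTR, at 76762225, was in 4 libraries, and the other 5, of which 4 were intronic, were in 2. Intronic positions had no sequence to search, since transcripts were the only source of sequence.

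Among the tissue-regulated splicing factors, 8 of 11 genes had positions, 38 in all. The Rbfox proteins, which bind UGCAUG elements beside alternative exons in neurons and muscle, differed from each other. Rbfox2 had 13 positions, 11 in its 5172 nt 3′ UTR and 2 in introns, while the 4 positions of Rbfox1 were intronic, each in 2 libraries, and none was listed for Rbfox3. Of the Rbfox2 positions, 4 were in 3 libraries and 9 in 2. The position at 77082538, in 3 libraries, was followed by the miR-15a 8mer, and that at 77083686, in 2, by the miR-9 7mer. Positions at 77083969 and 77084107, both in 3 libraries, had shorter 7mer-A1 matches of miR-9 and miR-92a, in which seed bases 2 to 7 pair and an A follows.

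The Ptbp family represses neural exons, with Ptbp1 in progenitors and Ptbp2 in young neurons, and Ptbp1 is a known target of miR-124. Ptbp2 had 7 positions: 119740441 in 4 libraries, 119719335 in 3, and 5 in 2. The first lay in coding sequence before a miR-181a 8mer and the second in the 3′ UTR before GTGCCTT. Ptbp3 had 5 positions, each in a 3′ UTR, of which 59474634, in 3 libraries, preceded a miR-181a 8mer, and 59473169 and 59475853, both in 2, preceded GTGCCTT. The stretch of Ptbp2 at 119719335 was identical to that of Ptbp3 at 59473169 at 21 of 28 bases and to that at 59475853 at 13. Both counts include the crosslinked base and GTGCCTT, alike by selection. Ptbp1 had 2 positions in its 3′ UTR, both in 2 libraries. That at 79864025 had no match just after it, and that at 79864425 lies too near the transcript's end to be searched. Nova1, a neuronal splicing factor, had 4 positions in its 3′ UTR, each in 2 libraries, of which 46699675 was followed by the miR-181a 8mer and 46696742 lay at overlapping 7mers of miR-19a, miR-130a and miR-148a. Rbfox1, Ptbp1, Ptbp3 and Nova1 were picked with their values known.

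Regulators of translation and stability had positions in 9 of 10 genes, 28 in all, of which 22 (78.6%, 59 to 91.7) lay in 3′ UTRs. Cpeb proteins bind 3′ UTRs and control poly(A) tail length, and each of the 4 Cpeb genes had positions. Cpeb4 had 3, each in the 3′ UTR. That at 31934855, in 4 libraries, was followed by the miR-92a 8mer, and that at 31934818, in 2, by overlapping matches of miR-181a and miR-23a. In Cpeb3 the position at 37021915, in 2 libraries, was followed by the same miR-92a 8mer. The 2 stretches were identical at 18 of 28 bases, which include the crosslinked base and the 8mer, alike by selection. Cpeb2 had 5 positions, with 43286540 in 3 libraries followed by the miR-15a 8mer and the other 4 in 2.

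Pum2, a repressor of the Pumilio family, had 5 positions. Those at 8749994, in the 3′ UTR, and 8717865, in an intron, were in 3 libraries, and the other 3 were in 2. The intronic position was not searched, and the 4 exonic ones had no 7mer-m8 match just after them, though the coding position at 8713858, in 2 libraries, had a 7mer-A1 match of miR-130a. The Igf2bp proteins are fetal mRNA stabilisers, and Igf2bp1 is a known let-7 target. Igf2bp1 had 3 positions in its 6337 nt 3′ UTR, of which 95958148, 5352 nt into the UTR and in 3 libraries, was followed by the let-7 7mer. Igf2bp2 had 2 positions and Igf2bp3 had 2, with 49087157 of Igf2bp3 in 4 libraries, and none of the 4 had a match. Cpeb3, Pum2 and the Igf2bp genes were picked with their values known.

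Across all groups, 225 positions were exonic, each fell on a T, and 224 had a full window. A 7mer-m8 match of the 35 microRNAs with a reference sequence, starting no more than 1 nt upstream or 3 nt downstream of the crosslink, was found in 43 windows (19.2%, 14.3 to 25) in 31 genes, beside 25.6% of the 10973 windows of the whole table. With GTGCCTT added, the count was 55 (24.6%, 19.1 to 30.7) in 33 genes, beside 28.8%. Of the 43 windows, 26 held an 8mer, a count not given here for all windows. The most frequent families were GTGCCTT with 12 windows (5.36%, beside 3.17% of all windows), miR-181a with 10 (4.46%, beside 2.53%), miR-15a with 7 (3.12%, beside 2.36%), and let-7, miR-9 and miR-19a with 4 each. The miR-17 7mer, at 2.66% of all windows, was found in 1 window here, that of Ddx5. The intervals of the 6 most frequent families include the shares of the whole table. That of the 35 microRNAs together has an upper bound of 25, below 25.6, and that of miR-17 an upper bound of 2.46, below 2.66. Neither difference was tested, and miR-17 was picked with its value known. In 3′ UTR windows alone the share of the 35 microRNAs was 22.1% (15.4 to 30.2), beside 28.3% of all such windows. In coding windows it was 16.9% (9.54 to 26.7), beside 22%, so both intervals include the whole-table share. Without Ddx3x the share of the 35 microRNAs was 18.8%.

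**Figure D4:**
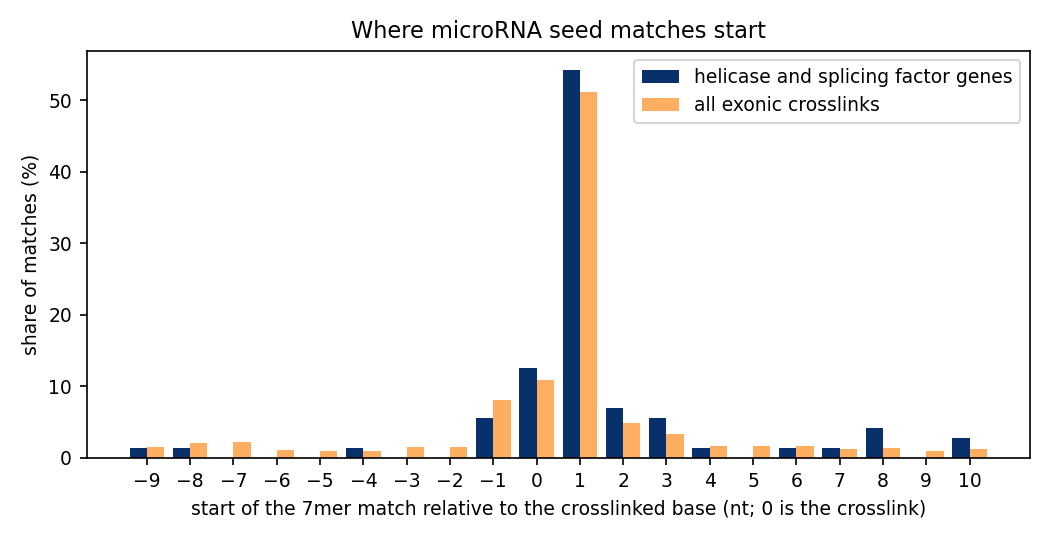
Share of 7mer-m8 matches, GTGCCTT included, by start relative to the crosslinked base (horizontal axis, nt) for the helicase and splicing factor genes and for all exonic crosslinks. In both, the highest bar is at 1 nt after the crosslink, with 54.2% of 72 matches and 51.1% of 4539.

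The share with a match was lowest at crosslinks in 2 libraries, here and in the whole table, with intervals that overlap here. With GTGCCTT included, they were found at 29 of 159 windows in 2 libraries (18.2%, 12.6 to 25.1), 15 of 39 in 3 (38.5%, 23.4 to 55.4) and 11 of 26 in 4 or 5 (42.3%, 23.4 to 63.1). Over all crosslinks the shares were 22.3%, 39.5% and 51.2%. In 3′ UTRs, 40 of 131 windows had a match (30.5%, 22.8 to 39.2), beside 31.8% of all 3′ UTR windows. In coding sequence, 14 of 83 did (16.9%, 9.54 to 26.7), beside 24.3%, and none of the 14 was GTGCCTT. The recurrent positions with no match included those of Rbm18 in 5 libraries and those of Ddx6, Pcbp3, Rbm39 and Rbms1 in 4.

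**Figure D5:**
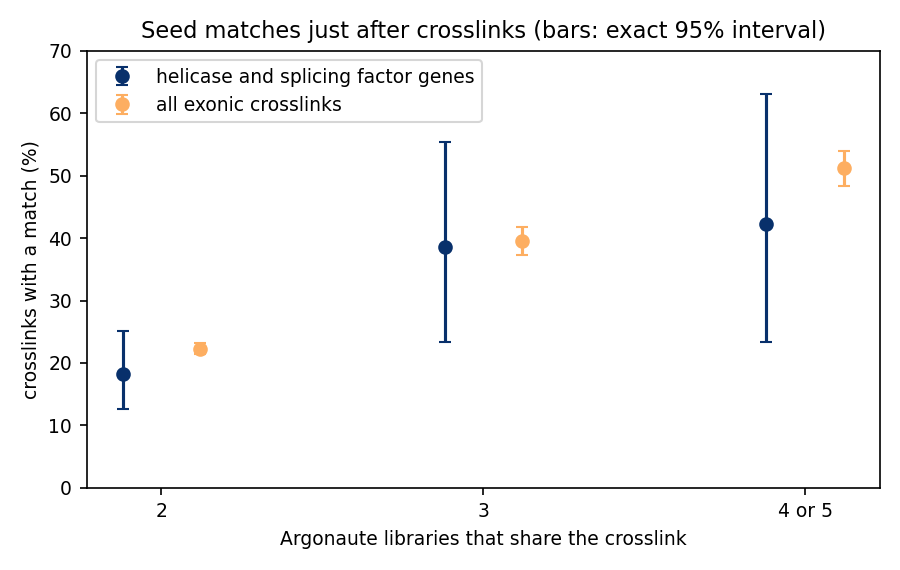
Share of exonic crosslinks with a 7mer-m8 match just after them, GTGCCTT included (vertical axis, percent, with exact 95% intervals), by the number of Argonaute libraries that share the crosslink. Values for the helicase and splicing factor genes are 18.2%, 38.5% and 42.3%, and their intervals overlap those of all crosslinks in each class.

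A list of miR-216 sites was deposited with the crosslinks, and 1 of its 394 distinct sites lay in these genes. It lay in an intron of Hnrnpll, a splicing factor best known from lymphocytes, at 80058355 to 80058360 on the minus strand of chromosome 17. It was named for miR-216a, its score was 2, and a crosslink listed in 2 libraries lay on its last base, at 80058355. Of the 82 crosslinked genes, this was 1 (1.22%, 0.0309 to 6.61), beside 6.84% of all crosslinked protein-coding genes. No window had a 7mer-m8 match of miR-216a or miR-216b just after the crosslink.

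Other genes of splicing and RNA binding were crosslinked too. From a list of 60, such as core spliceosome subunits, SR protein kinases, the FET and FMR1 families and helicases with other names, 43 (71.7%, 58.6 to 82.5) had positions, 131 in all, beside 22.1% of all protein-coding genes. Sfpq, a paraspeckle splicing factor, had 13, the highest in 4 libraries and 2 in the 3′ UTR. Son had 10, and Syncrip had 7, each in the 3′ UTR. Only Fxr1, a relative of the fragile X protein, had a position in 5 libraries. The eIF4A helicases Eif4a1 and Eif4a2, of the same protein family as Ddx3x, had 2 positions each, at most in 3 libraries. The genes named from this list were picked with their values known.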

How the data were processed

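Argonaute PAR-CLIP of neonatal mouse retina was read from 2 tables pooled over the 5 Argonaute libraries. A crosslink's score counts, per the file headers, the samples with that consistent crosslink (2 to 5). The deposited miR-216 table has no header, and its score, with the same range, is read here as the same count. CASAVA 1.8.2, STAR, bedtools and mm10 are named in the submitters' processing notes; no role or other step is given. No column was left unmapped, and read depth is unknown.

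Same-strand GENCODE M21 transcripts of each gene gave the class of a position, with 3′ UTR placed before coding sequence, then 5′ UTR, then noncoding exons, then introns. Stop codons counted as coding, and UTRs came from protein-coding transcripts only. Sequence came from spliced transcripts. Of 36 microRNAs listed, 35 had a mature sequence (RefSeq, GRCm38.p6); miR-124-3p had none, and GTGCCTT was found by counting 7mers 1 nt after crosslinks. A match pairs with bases 2 to 8; an 8mer also has an A after it. Of 10989 exonic crosslinks with sequence, 10989 were at T.

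Intervals are exact (SciPy 1.17.1, Python 3.11.15). The match finder was tested on simulated sequences and the coordinate conversion on annotated transcripts. Genes named are those with a position in 5 libraries, or in 4 with a match; the 12 with the most positions; the one with the most in each group; and any with a miR-216 site. Results on 1 gene are not reported here; it stays in the counts and is not drawn. Members and lists were chosen with earlier results of these data known. This holds for the list of other splicing genes too, though its genes were not picked for how they were crosslinked.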

Additional observations from a re-analysis of the deposited data

How the results depend on the processing

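Of 35 alternatives over 7 results, 27 stayed within the interval of the reported share or within 1.5 times the reported count. Keeping only positions in 3 or more libraries, which leaves fewer positions by construction, gave 38 genes and 68 positions. Their 3′ UTR share was 70.6%, beside 67% of all such positions. Their match share was 30.8%, beside 38.4% of all such windows. With the same limit, 18 of the 43 other splicing genes and 0 miR-216 sites were left. No share of all protein-coding genes at this limit is given. Neither the 38 nor the 18 can therefore be set beside the 22.1% of all protein-coding genes with any position. The match share was 11.6% with 8mers only and 25% with 7mer-A1 matches allowed. Like shares over all windows are not given for these 2 settings. Neither value can be set beside the 25.6% of all windows, which counts 7mer-m8 matches. The match share was 24.6% with GTGCCTT added, an alternative chosen after seeing the data, as were those without Ddx3x or Ddx3y. Merging positions within 10 nt, tried on 4 results, joined none, since no positions of a gene lay that close, and so says nothing about their stability. No paired analysis was possible because the libraries come as 1 pooled table, which also means that leaving out a library could not be tried. Depth limits what can be listed, since rare RNAs may not reach 2 libraries, and groups with few windows have wide intervals.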
